A study of Homo sapiens with 8 samples.

Results

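The change in gene expression that accompanied enzalutamide resistance was compared between C4-2B and CWR-R1, 2 prostate cancer cell lines. For each gene the log2 change from sensitive to resistant cells in CWR-R1 was subtracted from that in C4-2B, so a positive difference of changes means a more positive change in C4-2B. Genes were kept when both tables listed them and any of the 6 libraries had a level of 5 or more, which left 12250 of the 13230 genes in both tables and of the 16126 in any table of the series. The genes nearest the limit were HERC2P7 (highest level 5.003), BEND7 (5.003) and LOC101928069 (5.02) inside it, and MGC70870 (4.98), LINC00115 (4.97) and ZMYND15 (4.97) outside it.

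Enzalutamide blocks androgen signalling. Cells that grow in its presence may keep that signalling, use glucocorticoid signalling in its place, or lose luminal identity and take on other lineage programmes. Genes such as KLK3 and FKBP5 are raised by androgen, FKBP5 also by glucocorticoids.

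C4-2B, which descends from LNCaP and grows at castrate androgen levels, was profiled as sensitive C4-2B and resistant C4-2BENZR cells, 2 biological replicate libraries each, and all 4 carried a luciferase and a GFP transgene. CWR-R1, which descends from a xenograft of a prostate tumour that had relapsed, was profiled as sensitive CWR-R1 and resistant CWR-R1ENZR cells with 1 library each, and the labels name no transgene there. Each comparison is of 1 resistant with 1 sensitive line, the labels give neither the drug exposure of the cells nor the time in culture, and the p-values measure the spread between libraries of a line. Levels are reads scaled to library size by the authors, close to CPM, and changes are log2 ratios of level + 1, which understate the change of low genes.

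The libraries held 14503586 to 20248655 reads in listed genes. Replicates differed by a median of 0.088 (C4-2BENZR) and 0.097 (C4-2B) on the log2 scale of level + 1. All 18 genes of a luminal epithelial list stood in both tables, with summed levels of 4998 to 5543 in the C4-2B libraries, 4809 in CWR-R1 and 6050 in CWR-R1ENZR. Of 10 fibroblast markers 4 were listed in the C4-2B table and 3 in the CWR-R1 table, with summed levels of 15.0 to 18.5 in C4-2B, 51.6 to 56.3 in C4-2BENZR, 37.4 in CWR-R1 and 69.8 in CWR-R1ENZR. Of 10 endothelial markers 2 and 3 were listed (7.61 to 8.41, 4.77 to 4.98, 13.8 and 31.2), and of 10 blood markers 2 and 3 (15.9 to 18.2, 10.1 to 12.6, 4.99 and 6.70). The library labelled VCaPENZR, not used here, correlated at 0.940 with CWR-R1ENZR and at 0.728 with VCaP over 12868 genes.

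The changes of the lines were nearly unrelated. Across genes, which are not independent replicates, they correlated at a Pearson r of 0.077 and a Spearman rho of 0.094, and 53.6% of genes had the same sign in both. The difference of changes passed an interaction test in limma for 7064 genes (57.7% of those tested, adjusted p below 0.05), 3611 with a higher change in C4-2B (29.5%) and 3453 with a lower one (28.2%). A gene that passed is called here. The 7064 called genes included 2827 with a difference of at least 2-fold (23.1%), 1519 above (12.4%) and 1308 below (10.7%). The CWR-R1 libraries add no spread of their own to this test and were assumed to vary like the C4-2B libraries.

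C4-2BENZR against C4-2B alone gave 3420 genes called higher (27.9%) and 3644 called lower (29.7%), which happen to sum to 7064 again. Of these 4528 were called in the difference of changes too. With total reads as the only scaling the split in C4-2B was 4424 against 2728, as the median change of all genes moved from −0.01 to 0.09, while the split of the difference stayed at 3718 against 3380. In CWR-R1, without a test, 1072 genes were at least 2-fold higher (8.75%) and 1167 at least 2-fold lower (9.53%).

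Some genes passed 2-fold in both lines. Of 1041 genes called and at least 2-fold changed in C4-2B, 455 (43.7%) were also at least 2-fold changed in CWR-R1, against 18.3% of all genes past that size there. The 455 were 20.3% of the 2239 genes past it in CWR-R1. They split into 163 genes higher in both lines (1.33% of all genes), 91 lower in both (0.743%), 137 higher in C4-2B and lower in CWR-R1 (1.12%) and 64 lower in C4-2B and higher in CWR-R1 (0.522%). Thus 254 genes agreed (2.07%) and 201 were opposite (1.64%).

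**Figure D1:**
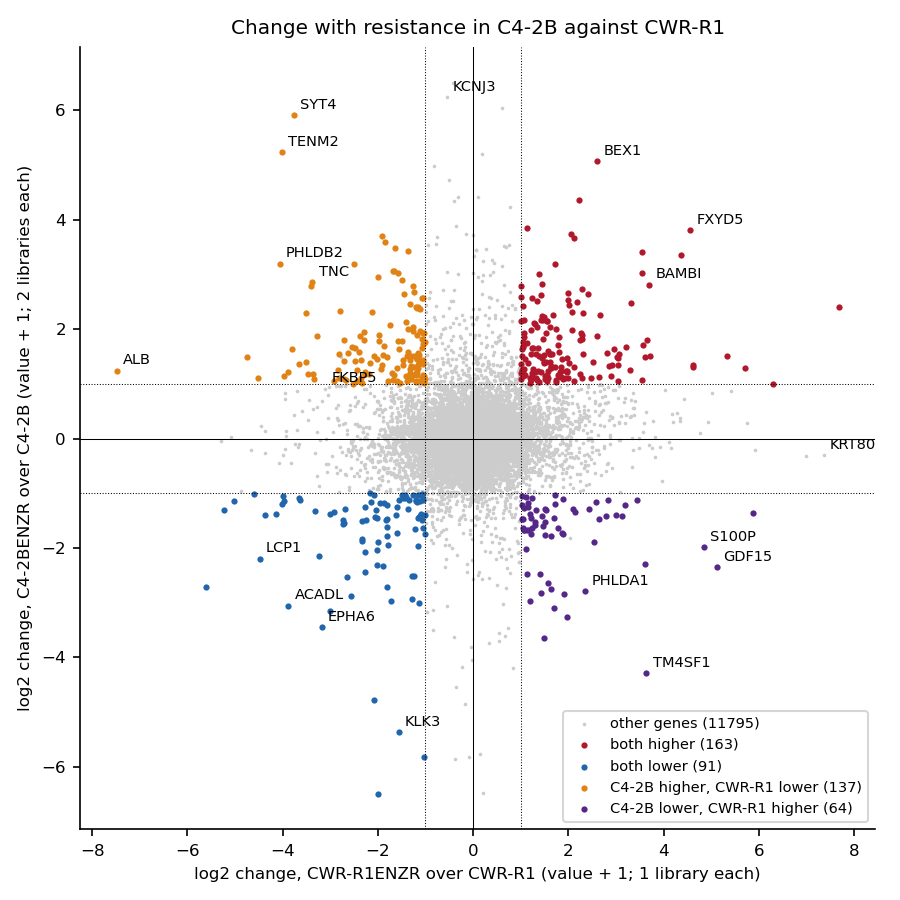
Each point is 1 of the 12250 genes, with the log2 change of level + 1 in CWR-R1 (x axis, 1 library per group) against that in C4-2B (y axis, means of 2 libraries per group). Colours mark the 4 classes past 2-fold in both lines (163, 91, 137 and 64 genes), and dotted lines mark 2-fold. The cloud has no diagonal trend (Pearson r 0.077).

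The opposite genes often exchanged their order between the lines. Levels across tables were normalized separately, so this order is approximate. Of the 137 genes higher in C4-2BENZR and lower in CWR-R1ENZR, 130 were lower in C4-2B than in CWR-R1 among sensitive cells, and 99 were higher in the C4-2B line among resistant cells. Of the 64 opposite the other way, 52 began higher in C4-2B and 55 ended lower. The order crossed for 92 of 137 (67.2%) and 43 of 64 (67.2%) opposite genes, and for 30 of 163 (18.4%) and 17 of 91 (18.7%) agreeing genes. Over all genes the lines did not come closer: the median gap was 0.58 log2 units between sensitive and 0.62 between resistant cells, and 47.6% of genes were nearer in resistant cells. The opposite classes were defined from the same changes, so the crossing is a description.

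Among genes higher in both resistant lines were cell surface and signalling genes that sensitive cells barely expressed. FXYD5, a regulator of the sodium pump, had levels of 0.619 and 0.0518 in the C4-2B libraries, 17.1 and 18.3 in C4-2BENZR, 0.135 (2 reads) in CWR-R1 and 25.9 in CWR-R1ENZR. RSPO4, a secreted enhancer of WNT signalling, stood at 0.103 and 0 in C4-2B, 9.26 and 11.2 in C4-2BENZR, 0.0675 (1 read) in CWR-R1 and 11.5 in CWR-R1ENZR. Both were near 0 in each sensitive library and well above it in each resistant one. The changes were 3.81 and 4.57 for FXYD5 and 3.42 and 3.55 for RSPO4 (C4-2B, then CWR-R1), and neither difference passed (limma adjusted p = 0.123 and 0.779). That of FXYD5 passed without C4-2B replicate 2 (0.0157) and with a pseudocount of 4 (0.0328).

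BAMBI, a decoy receptor for the TGF-beta family, rose from 10.6 and 8.07 to 74.8 and 68.4 in C4-2B and went from 4.86 in CWR-R1 to 75.1 in CWR-R1ENZR. Its level was alike in the 3 resistant libraries, and its change was larger in CWR-R1 (difference −0.89 ± 0.21 SE, limma adjusted p = 0.00275). BEX1, a small signalling adaptor expressed in neurons, stood at 0.0516 and 0 in C4-2B, 30.6 and 36.6 in C4-2BENZR, 0.337 (5 reads) in CWR-R1 and 7.17 in CWR-R1ENZR. Here the change was larger in C4-2B, 5.08 against 2.61 (difference 2.47 ± 0.35 SE, limma adjusted p = 2.4e-05).

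SERPINB5, a serpin also known as maspin, rose from 1.5 and 0.673 to 15.7 and 16.2 in C4-2B, and went from no read in CWR-R1 to 160 reads in CWR-R1ENZR, at least 53-fold against a floor of 3 reads. Its difference was called by edgeR (adjusted p = 0.00269) and not by limma (0.279). PXDN, a peroxidase that crosslinks collagen IV, rose from 1.91 and 0.983 to 24.6 and 23.3 in C4-2B and was 6.68 in CWR-R1 and 157 in CWR-R1ENZR. KCNG1, a potassium channel subunit, and DTX3, a ubiquitin ligase of the Deltex family, changed by 2.48 and 2.64 in C4-2B and by 3.32 and 2.42 in CWR-R1. The differences of PXDN (−1.01) and KCNG1 (−0.84) were called by limma and not by edgeR (adjusted p = 0.149 and 0.832). Leaving out C4-2BENZR replicate 2 also ended the calls of PXDN (limma adjusted p = 0.0789) and KCNG1 (0.0647), and leaving out replicate 1 that of PXDN (0.0625).

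Genes lower in both lines included metabolic and cytoskeletal genes. ACADL, a dehydrogenase of fatty acid oxidation, fell from 51.1 and 58.9 to 6.0 and 5.44 in C4-2B and was 19.6 in CWR-R1 against 0.402 (6 reads) in CWR-R1ENZR. LCP1, the actin-bundling protein L-plastin, fell from 281 and 286 to 56.6 and 65.6 and was 90.4 against 3.08. Every resistant library was below every sensitive library of its line for both genes, which their selection required. LCP1 changed by −2.20 in C4-2B and −4.48 in CWR-R1 (difference 2.29 ± 0.13 SE, limma adjusted p = 2.18e-09). The difference for ACADL was 0.82 and turned to −0.18 with a pseudocount of 4.

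DDC, aromatic L-amino acid decarboxylase, fell from 90.3 and 96.2 to 12 and 14.8 in C4-2B and went from 706 reads (47.6) to none in CWR-R1ENZR, at least 237-fold. EPHA6, an ephrin receptor, changed by −3.44 in C4-2B and −3.18 in CWR-R1. FOXN4, a forkhead transcription factor, changed by −3.16 and −3.0. The secreted glycoprotein gene LRG1 changed by −2.88 and −2.56, the neuron navigator gene NAV3 by −2.44 and −2.27, and LOC200772 by −2.53 and −2.65. For these 5 genes the difference was not called by limma (adjusted p 0.428 to 0.815), which does not show that the changes were equal. edgeR called EPHA6 (adjusted p = 0.0270), and limma with a pseudocount of 4 called LRG1 (0.00979) and NAV3 (0.036).

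The largest opposite changes were in SYT4 and TENM2. SYT4, a synaptotagmin of secretory vesicles, stood at 5.36 and 5.28 in C4-2B, 381 and 381 in C4-2BENZR, 126 in CWR-R1 and 8.38 in CWR-R1ENZR. It rose in C4-2B while it was 15.0-fold lower in CWR-R1ENZR than in CWR-R1 (95% interval 12.5 to 18.2, counting error only). The difference of changes was 9.68 ± 0.14 SE (limma adjusted p = 6.39e-16). TENM2, a teneurin adhesion protein, went from 0.206 and 0.0518 to 41.0 and 42.2 in C4-2B and was 19.5 in CWR-R1 and 0.268 (4 reads) in CWR-R1ENZR. Its difference was 9.25 ± 0.32 SE (limma adjusted p = 7.35e-12).

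PHLDB2, which anchors microtubules at the cell cortex, went from 0.155 and 0 to 8.46 and 9.32 in C4-2B and was 29.2 in CWR-R1 and 0.804 in CWR-R1ENZR. TNC, the matrix protein tenascin-C, had no read in C4-2B, 6.52 and 6.02 in C4-2BENZR (at least 40.5-fold higher), 342 in CWR-R1 and 32.0 in CWR-R1ENZR. For TNC the CWR-R1 line stayed higher than the C4-2B line in both states, unlike SYT4, TENM2 and PHLDB2. The differences were 7.26 for PHLDB2 and 6.24 for TNC (limma adjusted p = 3.49e-10 and 8.62e-11). CRISPLD1 (5.68), the retinol-binding protein gene RBP7 (5.12) and the phospholipase gene PLA1A (5.8) were opposite in the same way. So was the readthrough transcript POC1B-GALNT4 (6.19), whose reads may be shared with its component genes.

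The leading genes of the other opposite class included a stress-induced cytokine and membrane proteins. TM4SF1, a surface protein of the tetraspanin-like family, fell from 52.3 and 56.0 to 2.27 and 1.39 in C4-2B and was 0.810 in CWR-R1 and 21.6 in CWR-R1ENZR. GDF15, a stress-induced cytokine, fell from 115.7 and 127 to 20.5 and 25.3 and was 24.2 in CWR-R1 and 879 in CWR-R1ENZR, a ratio of 36.3 (95% interval 32.7 to 40.4). Each was lower in the resistant state of C4-2B and higher in that of CWR-R1. The differences were −7.93 ± 0.30 SE and −7.48 ± 0.15 SE (limma adjusted p = 2.03e-11 and 3.28e-14).

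PTGER4, a prostaglandin E2 receptor, stood at 7.17 and 5.43 in C4-2B, 0.520 and 0.463 in C4-2BENZR, 10.2 in CWR-R1 and 137 in CWR-R1ENZR. S100P, a calcium-binding protein, stood at 6.34 and 6.63, 0.898 and 0.869, 1.69 and 76.5. PARP10, a mono-ADP-ribosyltransferase, stood at 126 and 117, 12.4 and 11.1, 1.89 and 10.4. The first 2 ended far higher in CWR-R1ENZR than in any C4-2B library, whereas PARP10 ended near the same level in both resistant lines (levels across separately normalized tables). Their differences were −5.91, −6.84 and −5.25. PHLDA1 (−5.15), C14orf159 (−4.76) and the ETS factor gene FEV (−4.43, no read in CWR-R1) completed the 8 genes.

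**Figure D2:**
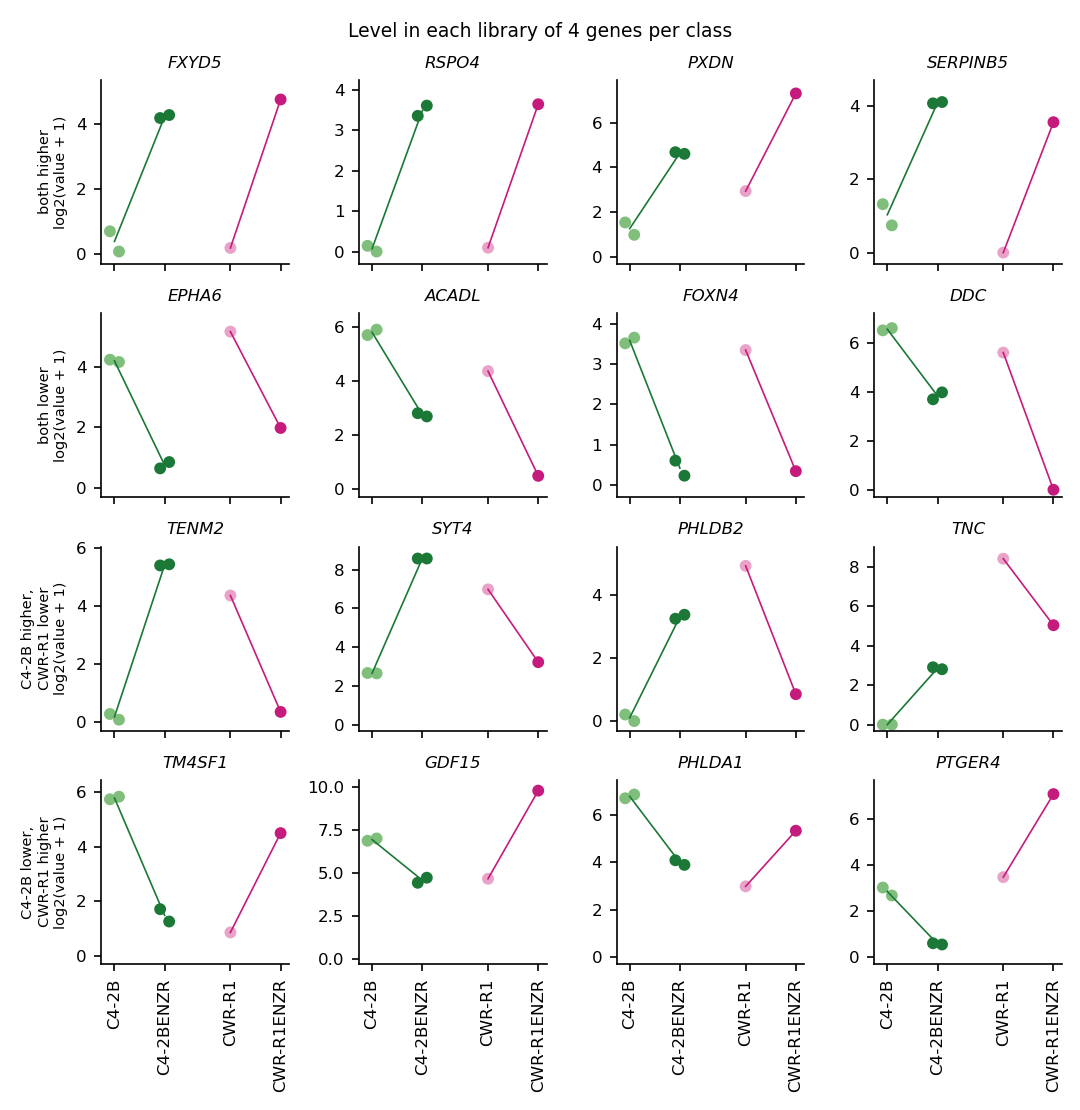
Level in each library (y axis, log2 of level + 1; x axis, group) of the 4 leading genes of each class, 1 class per row; light points are sensitive and dark points resistant libraries, and lines join the group means. FXYD5 rose from near 0 in both lines, and SYT4 ended at 381 in C4-2BENZR and 8.38 in CWR-R1ENZR.

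Other large differences rested mostly on 1 line. ALB, serum albumin, stood at 191 (2824 reads) in CWR-R1 and 0.067 (1 read) in CWR-R1ENZR, with no read in C4-2B and 1.23 and 1.51 in C4-2BENZR. Its difference of 8.73 thus rested mostly on CWR-R1. KCNJ3, an inwardly rectifying potassium channel, had no read in C4-2B, 77.0 and 72.7 in C4-2BENZR (at least 483-fold higher), 10.7 in CWR-R1 and 6.97 in CWR-R1ENZR. SSX2B, of the cancer-testis group, has a near-identical copy in SSX2, so its reads may belong to either. It stood at 0 and 0.155 in C4-2B, 95 and 99.4 in C4-2BENZR, 196 in CWR-R1 and 145 in CWR-R1ENZR. For these 2 genes the change was in C4-2B (differences 6.8 and 6.94).

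At the negative end, beside TM4SF1, GDF15 and S100P, stood 3 genes high in CWR-R1ENZR. KRT19, a keratin, stood at 23.6 and 25.3 in C4-2B, 18.4 and 20.3 in C4-2BENZR, 1.55 in CWR-R1 and 326 in CWR-R1ENZR. KRT80, another keratin, stood at 1.29 and 2.43, 1.46 and 1.16, 0.607 and 263. MALL, a membrane raft protein, stood at 17.0 and 15.2, 6.57 and 4.75, 3.10 and 241. All 3 were at their highest in CWR-R1ENZR, with differences of −7.32, −7.67 and −7.25. In C4-2B KRT19 changed by −0.32, KRT80 by −0.31 and MALL by −1.36 (limma adjusted p = 0.0205, 0.296 and 1.79e-06). MALL thus belonged to the genes past 2-fold in opposite directions.

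Androgen-activated genes differed between the lines in both directions. KLK3, prostate-specific antigen, stood at 2067 and 2024 in C4-2B and 49.2 and 48.1 in C4-2BENZR, but at only 1.96 (29 reads) in CWR-R1 and at no read in CWR-R1ENZR. It was thus 42.1-fold lower in C4-2BENZR and at least 9.73-fold lower in CWR-R1ENZR, and no ratio of those folds is defined. The difference of −3.80 on the scale of level + 1 turned to 2.69 in edgeR on reads (adjusted p = 0.317), so its sign is not settled. FKBP5, a cochaperone, stood at 357 and 383 in C4-2B, 692 and 704 in C4-2BENZR, 897 in CWR-R1 and 103 in CWR-R1ENZR. It rose in C4-2B and was 8.68-fold lower in CWR-R1ENZR (95% interval 8.24 to 9.16; difference 4.02 ± 0.087 SE, limma adjusted p = 6.13e-14).

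KLK2, another kallikrein, changed by 1.01 in C4-2B and by −2.34 in CWR-R1 (70 reads to 2). TMPRSS2, a surface protease, was higher in both resistant lines, 0.32 and 1.06. Of 30 androgen-activated genes measured, 16 were called above 0 in the difference (29.5% over all genes) and 11 below (28.2%). Their median was 0.32 against 0.01 over all genes. Over the 25 members outside chromosomes 7, 8 and 12 the median was 0.022. KLK4 (4.44, named after its value was seen) was at the top of that list and PTGER4 (−5.91) at its bottom.

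The luminal and lineage genes of the same panel had smaller differences than KLK2 and FKBP5, but the luminal epithelial list ranged wider. Of its 18 members 7 were called above 0 in the difference (29.5% over all genes) and 11 below (28.2%), from −7.32 to 3.17. The pioneer factor gene FOXA1 changed by −0.06 and −0.32, a difference of 0.26 whose call was lost without either C4-2BENZR replicate (limma adjusted p = 0.0532 and 0.0793) or without C4-2B replicate 1 (0.0568). HOXB13 changed by −0.52 and 0.63, CDH1, E-cadherin, by −0.79 and −0.12, and KRT8 by 0.62 and 1.00. VIM, vimentin, stood at 13.3 and 14.1 in C4-2B, 56.1 and 59.1 in C4-2BENZR, 7.56 in CWR-R1 and 4.49 in CWR-R1ENZR, a difference of 2.64. MKI67, a marker of cycling cells, changed by 0.23 and −0.56.

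Gene lists were then read by their counts and medians. Of 38 lists with at least 5 measured genes, 21 had a median difference above 0 and 17 below, from −2.72 to 3.64. The lists were chosen with earlier results of these data known, so the counts describe them.

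**Figure D3:**
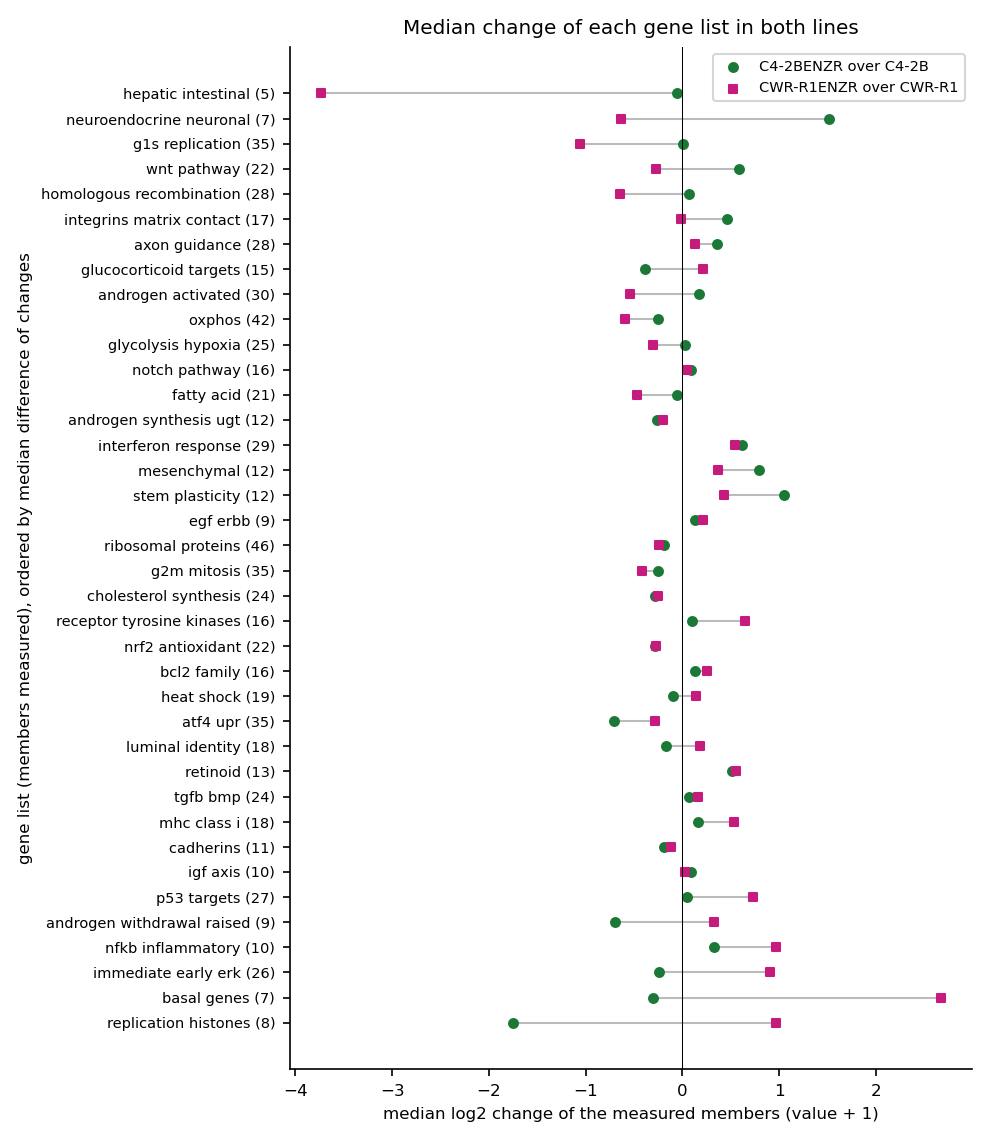
Median log2 change (x axis, level + 1) of each gene list in C4-2B (circles) and CWR-R1 (squares), with the number of measured members beside the name and lists ordered by their median difference of changes. The 35 G1/S and replication genes had medians of 0.01 in C4-2B and −1.06 in CWR-R1.

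DNA replication genes separated the lines. All 35 genes of the G1/S and replication list were measured, and all 35 were lower in CWR-R1ENZR than in CWR-R1, against 51% of all genes below 0. In C4-2B 9 were called higher and 9 lower, near the shares over all genes (27.9% and 29.7%), and the median change was 0.01. The difference was called above 0 for 30 of 35 (29.5% over all genes) and below 0 for 0, with a median of 1.13 against 0.01 over all genes. With total reads as the only scaling 35 of 35 were again below 0 in CWR-R1. Without members on chromosomes 7, 8 and 12 the median of the other 28 was 0.91.

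E2F2, a transcription factor of the G1/S switch, stood at 32.3 and 29.8 in C4-2B, 51 and 48.2 in C4-2BENZR, 117 in CWR-R1 and 55.4 in CWR-R1ENZR. GINS3, a subunit of the replicative helicase, stood at 20.9 and 22.6, 21.3 and 25.5, 55.5 and 17.8. E2F2 rose in C4-2B and was more than 2-fold lower in CWR-R1ENZR, and GINS3 differed only in CWR-R1, 3.11-fold (95% interval 2.71 to 3.59). Their differences were 1.72 ± 0.14 SE and 1.68 ± 0.20 SE (limma adjusted p = 6.63e-08 and 3.62e-06). The helicase genes MCM10 (1.58) and MCM4 (1.55) followed.

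Some members were lower in both lines. RFC3, a clamp loader subunit, changed by −0.39 and −0.34. RRM2, a ribonucleotide reductase subunit, and MCM3 fell in C4-2B (−0.47 and −0.47) and were lower by more in CWR-R1ENZR (−1.33 and −1.23). Among the 5 members not called in the difference were RFC3, CDT1, CCNE1 and TIPIN, named here after their values were seen.

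E2F factors bind a short GC-rich sequence in promoters of replication genes. The letters TTTCCCGC, TTTGGCGC or GGCGGGAA, on either strand and allowed to overlap, were found in 21 of the 31 G1/S promoters matched by symbol in RefSeq (67.7%) and in 4.61% of all 27305 promoters of 300 bases. The 21 genes with a match had a median difference of 1.27 and the 10 without had 0.91. The promoters of E2F2 and GINS3, with the largest differences, and of RFC3, with a difference near 0, are shown because all 3 hold these letters (RefSeq, GRCh38.p14, 250 bases before to 50 after the start, matched letters in capitals). E2F2 lies at chr1:23531184-23531483 (minus strand), GINS3 at chr16:58392221-58392520 (plus strand) and RFC3 at chr13:33817899-33818198 (plus strand).
E2F2: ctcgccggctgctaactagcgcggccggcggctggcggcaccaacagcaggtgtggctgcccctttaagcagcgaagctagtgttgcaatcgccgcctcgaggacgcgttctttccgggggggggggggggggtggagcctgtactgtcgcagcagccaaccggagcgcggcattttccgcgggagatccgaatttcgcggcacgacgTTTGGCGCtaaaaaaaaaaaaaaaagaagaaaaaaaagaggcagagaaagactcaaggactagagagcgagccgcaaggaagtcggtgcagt
GINS3: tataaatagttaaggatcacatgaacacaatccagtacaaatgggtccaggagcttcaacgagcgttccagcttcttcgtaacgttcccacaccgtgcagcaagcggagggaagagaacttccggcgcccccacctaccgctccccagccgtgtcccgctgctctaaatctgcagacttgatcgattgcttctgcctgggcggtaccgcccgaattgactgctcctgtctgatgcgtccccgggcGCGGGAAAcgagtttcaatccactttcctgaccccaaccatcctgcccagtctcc
RFC3: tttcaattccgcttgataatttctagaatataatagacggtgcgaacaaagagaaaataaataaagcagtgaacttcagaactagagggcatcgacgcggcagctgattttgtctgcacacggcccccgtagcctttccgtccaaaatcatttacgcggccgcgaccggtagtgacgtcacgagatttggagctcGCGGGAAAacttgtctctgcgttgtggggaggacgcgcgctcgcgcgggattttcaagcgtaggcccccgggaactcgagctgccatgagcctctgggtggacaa

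Homologous recombination genes moved the same way, with 19 of 28 called above 0 (29.5% over all genes) and 0 below (28.2%) and a median of 0.66. The median change was 0.07 in C4-2B and −0.64 in CWR-R1. BRCA1, a repair scaffold, stood at 78.3 and 75.4 in C4-2B, 108 and 98.9 in C4-2BENZR, 123 in CWR-R1 and 61.3 in CWR-R1ENZR (difference 1.41 ± 0.12 SE, limma adjusted p = 7.71e-08). RAD54B (1.70), the DNA translocase gene RAD54L (1.35) and the resection factor gene RBBP8 (1.27) also had a called difference above 0. BARD1, the partner of BRCA1, instead fell in C4-2B by 1.38 on the log2 scale and stood 2.18-fold lower in CWR-R1ENZR (difference not called by limma, adjusted p = 0.0591, but called with a replicate block, 0.0192). G2/M and mitosis genes differed less, with 11 of 35 called above, near the share over all genes (29.5%), and 5 below (28.2%). In C4-2B 30 of 35 were below 0, with 24 called lower (29.7% over all genes) and 2 higher (27.9%). In CWR-R1 30 of 35 were below 0 too (51% over all genes).

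Immediate early and ERK feedback genes were the counterpart. Such genes respond within minutes to hours to growth factor signalling. Of 26 measured, 21 were called below 0 in the difference (28.2% over all genes) and 2 above, JUN (1.79) and MYC (1.41), which were named after their values were seen. The median was −1.09, with 23 of 26 above 0 in CWR-R1 (49% over all genes). In C4-2B 12 were called lower (29.7% over all genes) and 4 higher (27.9%).

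DUSP5, a nuclear ERK phosphatase, stood at 2.58 and 3.67 in C4-2B, 3.45 and 3.42 in C4-2BENZR, 1.62 in CWR-R1 and 70.2 in CWR-R1ENZR. DUSP4, a related phosphatase, stood at 11.3 and 10.7, 11.1 and 12, 51.8 and 327. Neither was called in C4-2B (limma adjusted p = 0.628 and 0.621), and they were 43.3-fold and 6.31-fold higher in CWR-R1ENZR (95% intervals 29.0 to 67.9 and 5.85 to 6.82). PHLDA1, induced by ERK signalling, fell from 103 and 115 to 15.9 and 13.8 in C4-2B and was 6.88 in CWR-R1 and 39.2 in CWR-R1ENZR. IER3 (−3.85) lay between. ETV4, an ERK-induced ETS factor, and SPRED1, a feedback inhibitor, were higher in both resistant lines, with changes of 1.31 and 1.85 for ETV4 and of 0.71 and 0.86 for SPRED1.

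Of 10 NF-kB genes measured, 6 were called below 0 in the difference (28.2% over all genes) and 0 above (29.5%). In C4-2B 5 were called higher (27.9%), and in CWR-R1 8 were above 0 (49%). LIF, a cytokine of the interleukin 6 family, stood at 1.86 and 2.64 in C4-2B, 9.64 and 9.09 in C4-2BENZR, 0.877 in CWR-R1 and 16.3 in CWR-R1ENZR. NFKBIA, the NF-kB inhibitor, and TNFAIP2 had like changes in both lines, 0.52 and 0.54 for NFKBIA and 1.14 and 1.05 for TNFAIP2. NFKBIZ, a nuclear cofactor, changed by 0.30 in C4-2B (limma adjusted p = 0.126) and by 3.07 in CWR-R1. The list median of −0.85 was −0.03 over the 7 genes left at a minimum level of 20.

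WNT pathway genes were higher mainly in C4-2BENZR. Of 22 measured, 13 were called above 0 in the difference (29.5% over all genes) and 4 below (28.2%). In C4-2B 14 were called higher (27.9% over all genes), and the medians were 0.58 in C4-2B and −0.27 in CWR-R1. LEF1, a transcription factor of the pathway, stood at 3.2 and 3.73 in C4-2B, 26.5 and 19.7 in C4-2BENZR, 31.9 in CWR-R1 and 15.5 in CWR-R1ENZR. LGR4, a receptor for R-spondins, rose from 17.8 and 16.7 to 44.1 and 42.3 and was 41.8 in CWR-R1 and 10.2 in CWR-R1ENZR. In both genes C4-2BENZR ended near the sensitive CWR-R1 level (separately normalized tables). The differences were 3.43 ± 0.27 SE and 3.21 ± 0.18 SE (limma adjusted p = 6.09e-08 and 1.35e-09).

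The ligand WNT5A rose from 1.5 and 1.09 to 21.1 and 20.2 in C4-2B and was 18.4 in CWR-R1 and 21.4 in CWR-R1ENZR, a ratio of 1.16 with an interval that includes 1 (0.988 to 1.37). FZD8, a receptor, was 512 in CWR-R1 and 20.2 in CWR-R1ENZR and fell from 3.87 and 4.24 to 1.51 and 1.51 in C4-2B, so its difference of 3.59 joined 2 decreases of unequal size. FZD4 (−2.13), WNT7B (−1.27), NKD1 (−1.24) and LRP5 (−0.71) were the 4 called below 0, all but WNT7B named after their values were seen.

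**Figure D4:**
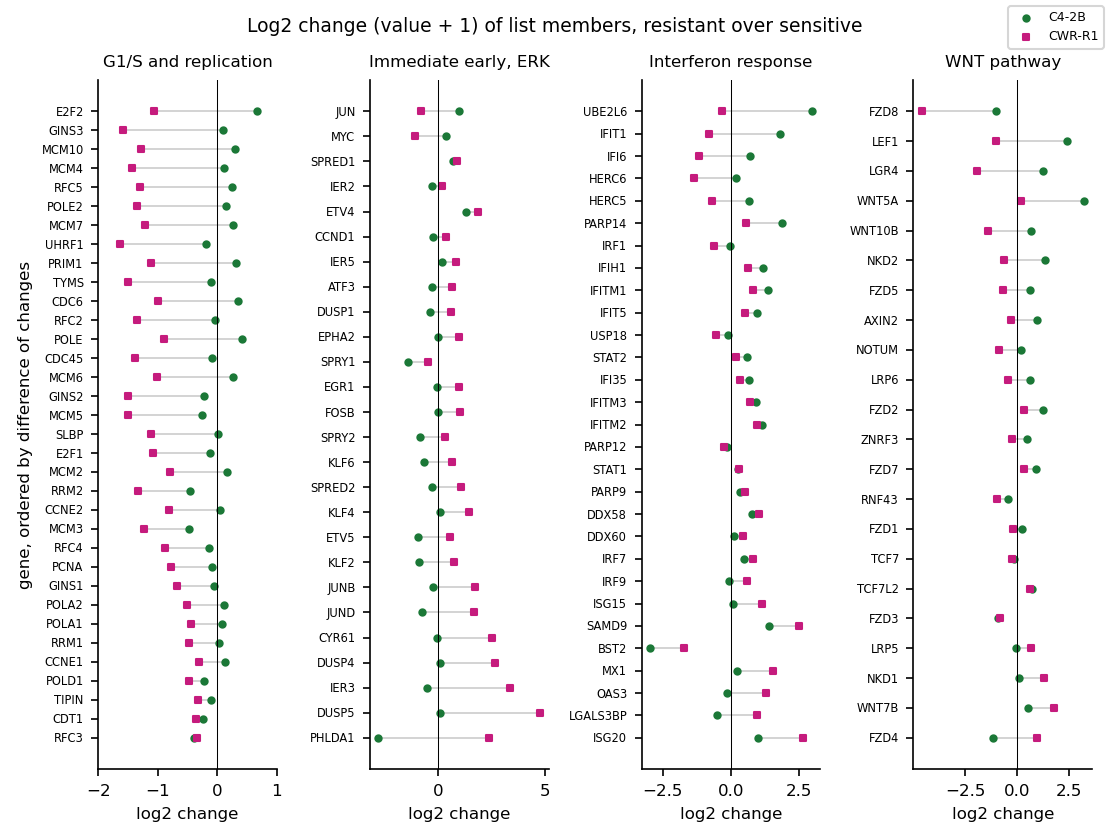
Log2 change (x axis, level + 1, scales differ between panels) of the measured members of 4 lists, 1 G1/S gene left out, in C4-2B (circles) and CWR-R1 (squares), ordered by their difference. The G1/S members shown lie below 0 in CWR-R1, and 23 of 26 immediate early members lie above 0 there.

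The interferon response list had like medians in both lines, 0.62 in C4-2B and 0.55 in CWR-R1. Of 29 measured genes 18 were called higher (27.9% over all genes) and 2 lower (29.7%) in C4-2B. In CWR-R1 20 were above 0 (49% over all genes), 6 of them past 2-fold. The difference was called above 0 for 7 (29.5% over all genes), below 0 for 6 (28.2%) and not called for 16. Neither count of calls exceeded the share over all genes. The median difference of 0.20 turned to −0.13 over the 16 genes left at a minimum level of 20.

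IFITM2, an antiviral membrane protein with close paralogs, stood at 8.56 and 8.39 in C4-2B, 21.5 and 18.8 in C4-2BENZR, 20 in CWR-R1 and 39.9 in CWR-R1ENZR. ISG20, an exonuclease, rose from 2.58 and 1.66 to 6.33 and 4.05 and was 5.19 in CWR-R1 and 38.2 in CWR-R1ENZR. BST2, tetherin, went against the list in both lines, from 35.9 and 33.1 to 4.02 and 3.01 in C4-2B and from 14.0 to 3.55 in CWR-R1. IFIT1 rose from 0.877 and 0.518 to 4.91 and 5.04 in C4-2B and was 4.12 in CWR-R1 and 1.94 in CWR-R1ENZR (difference 2.61 ± 0.39 SE, limma adjusted p = 4.24e-05). UBE2L6, the conjugating enzyme for ISG15, had the largest difference, 3.31, with changes of 3.0 and −0.31.

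The letters TTTC, any 2 bases and again TTTC, a core of the interferon-stimulated response element, on either strand and allowed to overlap, were found in 17 of 25 matched promoters of that list (68.0%) and in 3.65% of all promoters. The 17 had a median difference of 0.13 and the other 8 of 0.37. ISG20, higher in both lines, BST2, lower in both, and IFIT1, higher in C4-2BENZR and lower in CWR-R1ENZR, all hold them and are shown for that reason (same source and window, matched letters in capitals). ISG20 lies at chr15:88638766-88639065 (plus strand), BST2 at chr19:17405581-17405880 (minus strand) and IFIT1 at chr10:89392373-89392672 (plus strand).
ISG20: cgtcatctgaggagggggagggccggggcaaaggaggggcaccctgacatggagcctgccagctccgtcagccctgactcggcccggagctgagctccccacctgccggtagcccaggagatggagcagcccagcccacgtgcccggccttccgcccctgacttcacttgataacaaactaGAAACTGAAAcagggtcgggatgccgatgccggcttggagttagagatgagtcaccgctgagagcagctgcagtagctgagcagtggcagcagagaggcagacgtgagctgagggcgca
BST2: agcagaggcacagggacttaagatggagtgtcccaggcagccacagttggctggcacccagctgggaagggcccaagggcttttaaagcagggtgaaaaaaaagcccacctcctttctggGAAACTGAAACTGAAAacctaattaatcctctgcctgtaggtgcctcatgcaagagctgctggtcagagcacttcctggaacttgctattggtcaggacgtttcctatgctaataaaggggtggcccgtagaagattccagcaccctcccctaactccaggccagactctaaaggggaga
IFIT1: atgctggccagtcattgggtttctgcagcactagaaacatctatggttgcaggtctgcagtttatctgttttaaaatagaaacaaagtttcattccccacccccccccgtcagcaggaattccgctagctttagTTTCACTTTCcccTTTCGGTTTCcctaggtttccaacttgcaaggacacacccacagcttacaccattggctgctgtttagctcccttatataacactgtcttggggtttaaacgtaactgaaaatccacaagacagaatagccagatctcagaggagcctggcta

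Retinoid genes had medians of 0.52 and 0.56, but single members diverged. CRABP1, a retinoic acid binding protein, stood at 0.103 and 0.0518 in C4-2B, 10.8 and 11.5 in C4-2BENZR, 3.78 in CWR-R1 and 0.536 in CWR-R1ENZR. CRABP2, its relative, stood at 2.32 and 1.76, 0.851 and 0.695, 24.6 and 399. The 2 binding proteins thus changed in opposite directions in each line (differences 5.13 ± 0.39 SE and −4.75 ± 0.30 SE, limma adjusted p = 3.23e-08 and 4.63e-09).

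Among aldehyde dehydrogenase genes that make retinoic acid, ALDH1A1 and ALDH1A3 rose in C4-2B and went opposite ways in CWR-R1. ALDH1A1 had no read in C4-2B, 1.28 and 0.579 in C4-2BENZR, 167 in CWR-R1 and 19.6 in CWR-R1ENZR. ALDH1A3 stood at 19.1 and 17.1, 24.1 and 20.3, 7.49 and 459, a difference of −5.48. DHRS3, a retinaldehyde reductase, and CYP26B1, which degrades retinoic acid, were higher in both resistant lines by like amounts, 1.48 and 1.44 for DHRS3 and 1.82 and 2.29 for CYP26B1.

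Plasticity genes were mostly higher in C4-2BENZR, with 9 of 12 called higher (27.9% over all genes) and 2 lower (29.7%). In CWR-R1 6 were above 0 and 6 below, and the medians were 1.05 in C4-2B and 0.43 in CWR-R1. NES, the intermediate filament nestin, stood at 44.2 and 42.3 in C4-2B, 136 and 124 in C4-2BENZR, 243 in CWR-R1 and 1718 in CWR-R1ENZR. TRPS1, a GATA-type repressor, rose from 0.980 and 1.86 to 35.0 and 28.0 and was 51.9 in CWR-R1 and 219 in CWR-R1ENZR. SOX9 and SOX4 were also higher in both, with changes of 1.26 and 3.29 for SOX9 and of 1.29 and 0.96 for SOX4. The median difference of 0.14 turned to −0.46 without the 3 members on chromosomes 7, 8 and 12, and to −0.05 without C4-2BENZR replicate 1.

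Mesenchymal genes had medians of 0.79 and 0.37 over 12 genes. In the difference 6 were called above 0 (29.5% over all genes) and 5 below (28.2%). The fibroblast marker sums given above were also higher in both resistant lines, and their part in this result was not tested. MMP14, a membrane metalloprotease, rose from 0.361 and 0.414 to 6.99 and 7.53 in C4-2B and was 0.945 in CWR-R1 and 3.62 in CWR-R1ENZR. COL6A2, a collagen chain, was 8.77 in CWR-R1 and 86.4 in CWR-R1ENZR and rose from 55.9 and 49.0 to 81.8 and 86.0 in C4-2B. COL4A2 fell in C4-2B (−2.20) and LOX, a collagen crosslinking enzyme, was lower in both lines (−1.74 and −1.02). The median difference of 0.16 was −0.72 without SNAI2, the member on chromosome 8, −0.04 with a pseudocount of 0.25 and −0.05 in edgeR.

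Short lists gave the extreme medians. Of 24 hepatic and intestinal genes only 5 were measured, all called above 0 (median 3.64), and 4 of them were at least 2-fold lower in CWR-R1ENZR. HLF, a liver transcription factor, stood at 43.1 and 39.3 in C4-2B, 43.9 and 35.5 in C4-2BENZR, 107 in CWR-R1 and 1.74 in CWR-R1ENZR. HNF4G, another, was 31.5 in CWR-R1 and 6.50 in CWR-R1ENZR. Neither gene was called in C4-2B (limma adjusted p = 0.666 and 0.860).

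Of 21 neuroendocrine and neuronal genes 7 were measured, with 5 called above 0 (29.5% over all genes) and 2 below (28.2%). The median was 2.89, or 2.62 with DDC at the floor of 3 reads in CWR-R1ENZR. ENO2, neuronal enolase, rose from 4.33 and 3.99 to 33.5 and 32.3 in C4-2B and was 335 in CWR-R1 and 215 in CWR-R1ENZR. PEG10, an imprinted gene of retrotransposon origin, rose from 5.67 and 6.47 to 16.0 and 22.6 and was 1176 and 314. SYP, synaptophysin, stood at 0.980 and 1.60, 0.520 and 1.45, 7.49 and 31.8, and its difference of −2.16 was called by limma (adjusted p = 0.000548) and not by DESeq2 (0.0932). Neuroendocrine genes thus moved apart within the list. SYT4, ENO2 and PEG10 were higher in C4-2BENZR and lower in CWR-R1ENZR, and SYP was higher in CWR-R1ENZR. BEX1 was higher in both resistant lines (5.08 and 2.61) and DDC lower in both (−2.71 and −5.60). The list median of 2.89 was the difference of DDC itself. The median was 0.20 over the 4 members outside chromosomes 7, 8 and 12.

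Basal epithelial genes gave a median of −2.42 over 7 of 18 genes, with 4 called below 0 and 1 above. LAMB3, a laminin chain, stood at 0.361 and 0.621 in C4-2B, 1.84 and 2.14 in C4-2BENZR, 0.472 in CWR-R1 and 115 in CWR-R1ENZR. ITGB4, integrin beta 4, was 7.69 in CWR-R1 and 54.5 in CWR-R1ENZR and between 16.0 and 20 in the C4-2B libraries. KRT15 had no read in CWR-R1 and 20.6 in CWR-R1ENZR, at least 102-fold higher. LAMA3, the laminin chain that pairs with LAMB3, instead fell from 244 and 225 to 102 and 92.5 in C4-2B and was 16.9 in CWR-R1 and 2.68 in CWR-R1ENZR. The median was −1.32 over the 6 members left without KRT80, which lies on chromosome 12.

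Of 25 genes of a replication histone list 8 were measured, with 7 called below 0 (28.2% over all genes) and 1 above (29.5%). Their median was −2.72. HIST1H2BK fell from 212 and 215 to 39.5 and 36.7 in C4-2B and was 18.8 in CWR-R1 and 32.9 in CWR-R1ENZR. Its difference was −3.23, beside −4.22 for HIST1H2AC, −3.05 for HIST1H1C and −2.76 for HIST2H2AA3. Copies of these genes are near-identical, most histone messages lack a poly(A) tail and the libraries were made from polyadenylated RNA, so these values are uncertain. The member above 0 was H1F0 (1.60), named after its value was seen. It is a linker histone of non-dividing cells rather than a replication histone.

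Genes normally raised by androgen withdrawal gave a median of −0.82 over 9 of 14 genes. Of these 4 were called below (28.2% over all genes) and 3 above (29.5%). CAMK2N1, an inhibitor of CaM kinase II, fell from 186 and 188 to 35.3 and 35.2 in C4-2B and was 38.2 in CWR-R1 and 62.9 in CWR-R1ENZR. SLC7A11, the cystine transporter, fell from 205 and 196 to 33.4 and 33.6 and was 57.1 and 72.1. UGT2B15, an androgen-inactivating enzyme whose reads may be shared with its close paralogs, was 13.5 in CWR-R1 and 0.201 (3 reads) in CWR-R1ENZR, 67.1-fold lower (95% interval 22.6 to 328). FOLH1, prostate-specific membrane antigen, fell in C4-2B (−0.32) and was 4.62-fold lower in CWR-R1ENZR.

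Among lists with smaller medians, targets of p53 were called below 0 in 18 of 27 cases (28.2% over all genes) and above in 2 (29.5%). Their median was −0.79, and 23 of 27 were above 0 in CWR-R1 (49% over all genes). CDKN1A, the inhibitor p21, changed by 0.00 and 3.49 and MDM2 by 0.13 and −0.14, both named after their values were seen. ATF4 and unfolded protein response genes were called lower in C4-2B in 29 of 35 cases (29.7% over all genes) and below 0 in the difference in 18 (28.2%). MHC class I genes were called below 0 in 10 of 18 (28.2% over all genes). Of 42 subunits of oxidative phosphorylation 26 were called lower (29.7% over all genes) and 6 higher (27.9%) in C4-2B. In CWR-R1 42 were below 0 (51% over all genes). With total reads as the only scaling, where the median CWR-R1 change of all genes was 0.06, 40 were below 0. The difference was called above 0 for 26 of the 42 (29.5% over all genes). Cholesterol synthesis genes were called lower in C4-2B in 18 of 24 cases (29.7% over all genes), and 16 were below 0 in CWR-R1 (51%). In the difference 8 were called above and 6 below, near the shares over all genes (29.5% and 28.2%).

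Changes also differed by chromosome. In CWR-R1 the median change was −0.56 over 620 genes of chromosome 12, where 81.1% of genes were below 0, −0.37 over 592 of chromosome 7 and −0.36 over 403 of chromosome 8. The median lay between −0.18 and 0.18 on every other autosome and X. In C4-2B the same chromosomes had medians of 0.09, 0.05 and −0.08, so the median differences of changes were 0.65, 0.45 and 0.32. Cut by gene order into 4 equal stretches, chromosome 12 had a median below 0 in CWR-R1 in each, from −0.71 to −0.36. In C4-2B the lowest autosome was chromosome 13 (−0.39 over 202 genes, 82.7% below 0), which stood at 0.01 in CWR-R1.

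**Figure D5:**
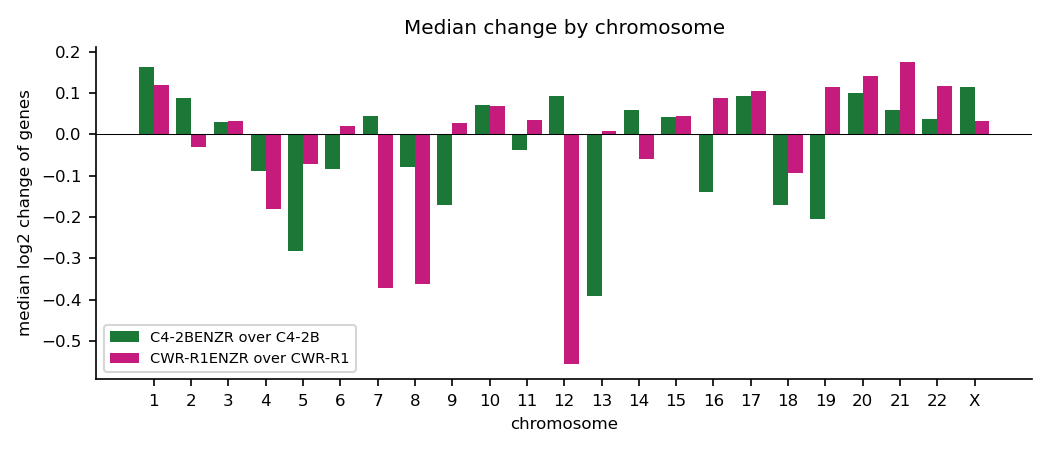
Median log2 change of level + 1 (y axis) of the measured genes on each autosome and X (x axis) in C4-2B and CWR-R1. Chromosomes 7, 8 and 12 are lowest in CWR-R1 (−0.37, −0.36 and −0.56) and chromosome 13 in C4-2B (−0.39).

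Runs of 10 neighbouring measured genes gave the regions with the most extreme differences, none of which lay on chromosome 12. Over 11897 overlapping runs the median difference lay between −0.76 and 0.88 in the central 95%. The highest run lay on chromosome 7 from CCDC126 to SNX10 (2.05, 10 of 10 above 0), followed by one from HOXA5 to SCRN1 that spans the HOXA cluster (2.02, 8 of 10) and one on chromosome 8 from TCEB1 to HEY1 (1.95, 10 of 10). In the HOXA run HOXA9 changed by 1.04 in C4-2B and −1.20 in CWR-R1 and HOXA10 by 0.68 and −1.51, whereas HOXA13 changed by −1.62 and −1.80. The lowest autosomal runs lay on chromosome 6 from FLOT1 to HLA-B (−1.83) and on chromosome 1 from NUDT4P1 to HIST2H2BE (−1.74). The run on chromosome 6 held IER3, HLA-C and HLA-B, with differences of −3.85, −2.15 and −2.47. The lowest run of all held 10 genes of chromosome Y, with a median change of −4.51 in C4-2B and 0.02 in CWR-R1.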

How the data were processed

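Polyadenylated RNA of 6 libraries was read as 150-base paired ends, per the labels. Per the submitters' processing notes the build was hg19. The aligner and counter were not given in the sources used here. For each line the authors deposited a table with 1 signal value per gene and library, a scaled read count: 100% of the deposited signal values lay within 0.02 reads of a whole number when divided by what 1 read was worth (0.0473 to 0.0675). A floor of 3 reads was a level of 0.142 to 0.202. The tables were normalized separately; a scale factor per table cancels within each change.

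The main test, limma 3.58.1 (R 4.3.3) with a trend, was fitted to log2(level + 1) of the 12250 genes in all 6 libraries with 4 group means, two-sided, with Benjamini-Hochberg adjustment over all genes and a threshold of 0.05. Its residual spread (2 degrees of freedom, 12.8 more from the prior) came from C4-2B alone. Printed changes are log2 ratios of group means of level + 1, and SE and p come from the fit. For CWR-R1, with 1 library per group, no p-value was computed for single changes, and 95% intervals of ratios are exact binomial (Clopper-Pearson), which cover counting error only. The same holds for floors, as PCR copies of a molecule were not marked. The authors' fold and p columns were not used. How strand was counted is not given, so genes overlapping on opposite strands cannot be told apart.

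The members, tests and lists were chosen with earlier results of these data known. Named genes were the 8 with the largest smaller change per class (C4-2B groups not overlapping and at least 10 reads in the higher group of each line). To these came the 6 highest and 6 lowest differences and a panel of 14 genes (13 of them measured). The 3 highest and 3 lowest runs of 10 neighbours and up to 8 members of each of 14 lists were also named. These lists had the highest or lowest median differences, or medians of the same sign in both lines of which the smaller was largest. Gene order and promoters came from RefSeq (GRCh38.p14). In all, 11 sequence patterns were searched over 36 lists (396 pairs); those reported, the promoters shown, and the chromosomes left out were chosen after the values were seen. Alternatives were other scalings, pseudocounts, filters and fold limits, edgeR 4.0.16 and DESeq2 1.42.0 on recovered reads, a replicate block and leaving out each C4-2B library. The scripts were tested on simulated data. The values of a few named genes are not reported here.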

Additional observations from a re-analysis of the deposited data

Results flagged for a closer look

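The difference of changes between the lines passed limma's interaction test for 3611 genes with a more positive change in C4-2B and 3453 with a more negative one. The genes listed here are the 8 leading genes of each opposite class and those of both extremes. Other named genes with a called difference, some of them in the opposite classes, stand in the report. More positive in C4-2B were SYT4 (9.68), TENM2 (9.25), ALB (8.73), PHLDB2 (7.26), SSX2B (6.94), KCNJ3 (6.8), TNC (6.24), POC1B-GALNT4 (6.19), PLA1A (5.8), CRISPLD1 (5.68) and RBP7 (5.12). More negative were TM4SF1 (−7.93), KRT80 (−7.67), GDF15 (−7.48), KRT19 (−7.32), MALL (−7.25), S100P (−6.84), PTGER4 (−5.91), PARP10 (−5.25), PHLDA1 (−5.15), C14orf159 (−4.76) and FEV (−4.43).

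Some genes at a level of 5 or more stood in only 1 of the tables and entered no comparison. They numbered 154 in the C4-2B table alone and 607 in the CWR-R1 table alone.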

How the results depend on the processing

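With 1 library per CWR-R1 group, the spread of that line is unknown, and low genes depend on the pseudocount. With a pseudocount of 4, 118 genes agreed and 75 were opposite (main values 254 and 201), and the correlation of changes was 0.085; at a minimum level of 20 the values were 167, 117 and 0.092. The correlation was 0.055 in edgeR, 0.057 in DESeq2 and 0.055 in edgeR with a replicate block. At 1.5-fold, 5106 genes had a called difference of that size, 4671 passed it in CWR-R1, 818 agreed and 597 were opposite; at 4-fold the values were 805, 520, 32 and 13. The differences that turned sign were ACADL (−0.18 with a pseudocount of 4) and KLK3 (2.69 in edgeR, 1.92 in DESeq2, 2.69 in edgeR with a replicate block; adjusted p 0.317, 0.483 and 0.309), whose CWR-R1ENZR library has no KLK3 read.

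Leaving out 1 C4-2B library gave 5884 to 6752 called differences and 249 to 266 agreeing genes. Deviations of same-numbered C4-2B libraries correlated at 0.088 over 1 pair of groups, so the numbers were not taken as pairs. With a replicate block limma called 7784 differences and 7752 changes in C4-2B. Of 1937 alternative values of the 131 named genes, 1879 kept sign and side of the threshold, 28 lost the call, 26 gained it and 4 turned sign. Removing the filter and a minimum of 1 gave the same 13230 genes. Among 608 alternative medians of lists 20 turned sign, in 10 lists.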
